A study of Danio rerio with 6 samples.

Results

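The M1 aminopeptidases were followed in RNA of whole kidney marrow (WKM) cells, the haematopoietic tissue of adult zebrafish, in Tg(drl:hoxa9;hsp70:meis1) animals (Tg) and in wild-type (WT) animals of the AB strain. The members were the rows of the count table named anpep, anpepa or anpepb together with those of enpep, lnpep, erap1a, erap1b, erap2 and npepps, which came to 9 of 32057 rows. Tg fish carried myc-tagged hoxa9 behind the draculin (drl) regulatory element, which is active in blood lineages, and meis1b linked to GFP behind the heat shock promoter hsp70, whereas WT fish carried neither transgene. Each library was made from the pooled marrow of 3 kidneys, with 3 pools per genotype described by the study as biological replicates. The labels and the methods give an age of about 5 months and the results of the study a younger age. The sources used here do not state the heat shock schedule of the animals taken for RNA.

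M1 aminopeptidases are zinc enzymes that remove single amino acids from the N-terminus of peptides. In mammals, ANPEP (aminopeptidase N, CD13) sits on the surface of myeloid cells, where it is used as a marker of acute myeloid leukaemia blasts, and also on the brush border of intestine and of the proximal tubule of the kidney. ENPEP (aminopeptidase A) is another surface enzyme of the mammalian tubule brush border and turns angiotensin II into angiotensin III. LNPEP (also called IRAP or oxytocinase) travels in intracellular vesicles, ERAP1 and ERAP2 trim peptides in the endoplasmic reticulum before they are loaded onto MHC class I, and NPEPPS is a puromycin-sensitive enzyme of the cytosol. WKM can hold both myeloid cells and tubule fragments, so a CD13-type transcript in this tissue can come from either source.

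The name table gives many zebrafish rows the symbol of their human match. There were 3 rows named ANPEP (ENSDARG00000036809, ENSDARG00000103878 and ENSDARG00000097285, called the first, the second and the third ANPEP row here), 2 named ERAP1 (ENSDARG00000013024 and ENSDARG00000021859) and 1 each of ENPEP (ENSDARG00000057064), LNPEP (ENSDARG00000100394), erap2 (ENSDARG00000098618) and NPEPPS (ENSDARG00000044943). Which ANPEP row is anpepa or anpepb, and which ERAP1 row is erap1a or erap1b, could not be told from the tables used here, so these rows are given by their identifiers. The rows were counted on the GRCz11 genome. The 3 ANPEP rows were selected with their difference between Tg and WT already known, so their Tg and WT levels are given as a description without a test. The other 6 rows entered by name. The sources used here do not state how reads that match several near-identical copies were counted, and the division of reads among paralogues is uncertain.

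Total counts were 50767535 to 64055374 in the Tg pools and 53620374 to 64888212 in the WT pools. A count of 0 allows up to 3 counts if each count stands for 1 read, which the sources used here do not state. This corresponded to a level of at most 0.0457 to 0.0606 CPM (counts scaled by TMM to a common library size). The limit covers counting error only, and it would be higher if 1 read gave several counts. The transgene rows followed the labels, with hoxa9a at 64.5, 78.1 and 101 CPM in the Tg pools and 0, 0.143 and 0.960 CPM in the WT pools, and MEIS1 at 52.5 to 77.2 CPM in the Tg pools and 21.4 to 26.7 CPM in the WT pools. Both rows can hold transgene reads. WT replicate 1 stood apart in its tubule content, with 4558 CPM summed over 21 rows of proximal tubule markers against 1512 and 1692 CPM in the other WT pools. The pools also differed in 6 rows of oocyte markers. Their sum was 505 CPM in Tg replicate 1, 1.17 to 1.95 CPM in the other Tg pools and 51.8 to 219 CPM in the WT pools. Tg replicates 2 and 3 thus lay far below every other pool, and Tg replicate 1 was the highest. Of 20123 genes tested by edgeR's quasi-likelihood test, 40 were called higher and 73 lower in Tg (false discovery rate, FDR, under 0.05 and at least 2-fold), which is 0.562% of the genes. Without a fold threshold 0.596% passed.

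The WT pools alone were used to separate tubule from myeloid rows. The 3 WT levels of each row, on a log2(CPM + 0.1) scale centred on their mean, were set against the same profile of the summed proximal tubule markers and of the summed neutrophil and macrophage markers, and a row went with the nearer profile. The second ANPEP row lay at a distance of 0.58 from the tubule profile and 1.92 from the myeloid profile, and ENPEP also went to the tubule side. The first ANPEP row lay at 0.12 from the myeloid profile and 1.57 from the tubule profile. In all, 2 rows went to the tubule side and 6 to the myeloid side, and the third ANPEP row was too low to sort (below a WT mean of 1 CPM). The sorting reads mainly whether a row followed the high tubule content of WT replicate 1. Among 16849 sortable genes, 13.6% went to the tubule side, 76.8% to the myeloid side and 9.60% to neither, so a place on the myeloid side does not show expression in myeloid cells.

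**Figure D1:**
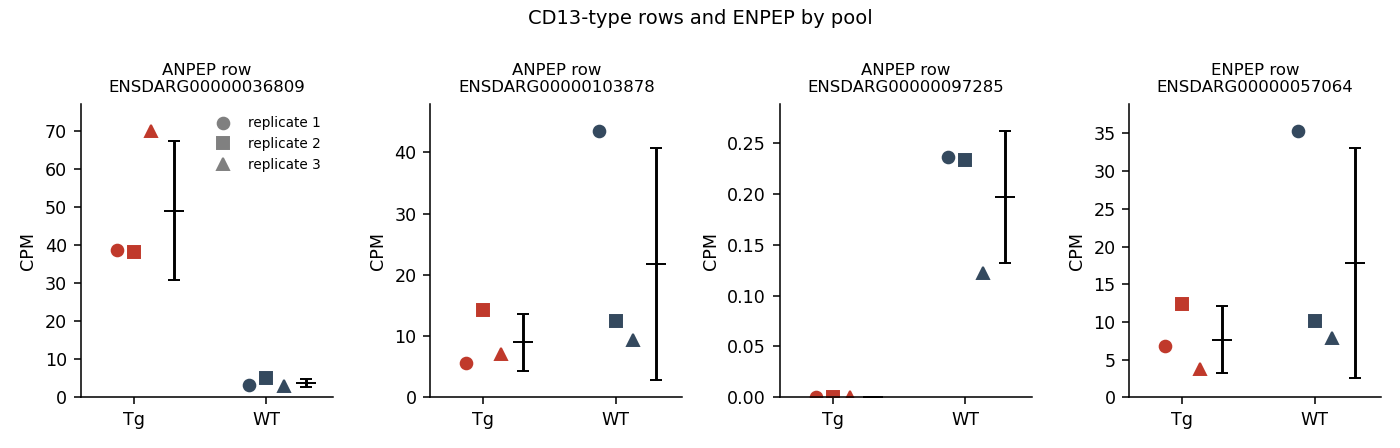
Levels of the 3 ANPEP rows and of ENPEP in CPM (vertical axes, which differ between panels) in each Tg and WT pool, with symbols for the replicate number and bars for the mean and s.d. of 3 pools. The first ANPEP row reads 38.1 to 70.0 CPM in Tg and 2.94 to 5.02 CPM in WT, whereas WT replicate 1 is the highest pool for the second ANPEP row and for ENPEP.

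The first ANPEP row was the tested member whose Tg pools all lay above the WT pools. It read 38.8, 38.1 and 70.0 CPM in the Tg pools and 3.23, 5.02 and 2.94 CPM in the WT pools. The lowest Tg pool lay well clear of the highest WT pool. The mean was 49.0 ± 18.3 CPM in Tg and 3.73 ± 1.13 CPM in WT (s.d., n = 3 each), a ratio of 13.1, and the fitted log2 fold change was 3.71 (standard error 0.34). No call is given for it, because the row was chosen on this contrast. With 1 pool left out, the log2 fold change was 3.36 to 3.99.

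Myeloid markers were set beside this difference. The 7 neutrophil marker rows summed to 17366 to 29481 CPM in Tg and 12625 to 22091 CPM in WT, with 0 at a level of 0. Their median log2 fold change was 0.45 with 6 positive, and 0 passed the test. Of 17 macrophage rows 16 were tested, and the sum was 1918 to 2542 CPM in Tg and 2541 to 3622 CPM in WT. Their median log2 fold change was -0.63 with 15 negative, and 0 passed the test. By DESeq2, 1 neutrophil row passed as higher and 3 macrophage rows as lower, where 639 of 25583 genes passed as higher and 1414 as lower. Per 100 CPM of neutrophil markers, the first ANPEP row stood at 0.223, 0.129 and 0.301 CPM in Tg and 0.0241, 0.0227 and 0.0233 CPM in WT. The WT values, close to one another, restate the sorting, which had placed this row by the same markers in the same pools. The ratio of Tg to WT means was 9.32. A large part of the neutrophil sum came from lyz, so the scale leans on it. The lyz row read 9111 to 15847 CPM in Tg and 7286 to 12829 CPM in WT. Per 100 CPM of macrophage markers, the WT values were less even, at 0.127, 0.172 and 0.0812 CPM. Every Tg pool was above every WT pool, and the ratio of means was 17.2. The row was chosen on its Tg and WT levels. Its separation on either marker scale thus restates that choice in part and is no separate evidence. The summed neutrophil and macrophage markers used for the sorting came mostly from neutrophil rows. In pooled tissue, more or fewer cells of a type and more or less RNA per cell cannot be told apart. Markers of haematopoietic stem and progenitor cells were also set beside the row. Their 8 rows summed to 990 to 1217 CPM in Tg and 561 to 637 CPM in WT, and none was at 0. The log2 fold change was positive for 7 rows and negative for 1. All Tg pools lay above WT for 5 rows, where 14.0% of the genes tested did, and the genotypes overlapped for 3. Of the 8 rows, 3 (gata2b, KIT and cd34) passed the test as higher, where 0.596% of all genes passed in either direction. By DESeq2, 5 passed as higher, where 639 of 25583 genes did. By edgeR with 1 pool left out, the number was 0 without Tg replicate 2, Tg replicate 3 or WT replicate 3. It was 1 without WT replicate 1 or 2, and 2 without Tg replicate 1. The part of these cells in the ANPEP difference was not tested.

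The second ANPEP row showed another pattern. It read 5.56, 14.3 and 7.08 CPM in the Tg pools and 43.5, 12.5 and 9.30 CPM in the WT pools. The genotypes overlapped, with Tg replicate 2 above 2 of the WT pools, and WT replicate 1 was far above all other pools. The mean was 8.99 ± 4.68 CPM in Tg and 21.8 ± 18.9 CPM in WT (s.d., n = 3 each), and the log2 fold change was -1.28 (standard error 0.64). Without WT replicate 1 it was -0.28.

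ENPEP resembled the second ANPEP row in its highest pools. It read 6.74, 12.4 and 3.76 CPM in the Tg pools and 35.4, 10.1 and 7.88 CPM in the WT pools. WT replicate 1 was again the highest pool, Tg replicate 2 was the highest of the Tg pools, and the genotypes overlapped, but Tg replicates 1 and 3 stood in the opposite order to the ANPEP row. The log2 fold change was -1.22 (standard error 0.66, adjusted p = 0.363 by edgeR's quasi-likelihood test over all genes), and -0.24 without WT replicate 1. Over the 6 pools, the centred log2 profiles of ENPEP and the second ANPEP row lay at a distance of 0.83, and 0.273% of the genes tested lay nearer to the ANPEP row. The ratio of the CPM of ENPEP to that of the second ANPEP row, which also depends on transcript lengths, was 1.21, 0.867 and 0.531 in the Tg pools and 0.812, 0.814 and 0.848 in the WT pools. The WT pools, whose levels served to sort these rows, kept nearly 1 ratio while the Tg pools spread around it.

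Proximal tubule markers were set beside these rows. Their 21 rows, none of them at 0, summed to 1262, 1605 and 1170 CPM in the Tg pools and 4558, 1512 and 1692 CPM in the WT pools. All 21 had a negative log2 fold change, with a median of -1.17 where the median of all genes tested was 0.01, and 1 of them, the sulphate transporter SLC13A1, passed the test as lower. By DESeq2, 6 passed as lower, where 1414 of 25583 genes did. By edgeR with 1 pool left out, the number was 0 without Tg replicate 2, Tg replicate 3, WT replicate 2 or WT replicate 3. In each of these fits, at most 2 of all genes passed in each direction. Without WT replicate 1, 15 of 21 were negative and the median was -0.39. The distal tubule markers, of which 8 of 15 rows were tested and 4 had no count in any pool (KCNJ1 and KCNJ10 rows), summed to 128 to 153 CPM in Tg and 298 to 540 CPM in WT. Their median log2 fold change was -1.30, or -0.93 without WT replicate 1, where 8 of 8 were negative. With all pools the salt cotransporter SLC12A3 passed the test as lower. It read 67.5 to 91.1 CPM in Tg and 179 to 271 CPM in WT. Without Tg replicate 1, 1 distal row passed as lower, and 0 did when any other pool was left out. Per 100 CPM of the proximal tubule markers, the second ANPEP row stood at 0.441, 0.893 and 0.605 CPM in Tg and 0.955, 0.824 and 0.549 CPM in WT. On the same scale ENPEP stood at 0.534, 0.774 and 0.321 CPM in Tg and 0.776, 0.671 and 0.466 CPM in WT. On this scale the genotypes overlapped for both rows, and the ratio of Tg to WT means was 0.832 for the ANPEP row and 0.852 for ENPEP. The WT values restate the sorting, which had placed both rows by the same markers in the same pools. A large part of the marker sum came from SLC20A1 rows, so the scale leans on them. The row ENSDARG00000020114 read 288 to 397 CPM in Tg and 222 to 995 CPM in WT. The row ENSDARG00000010641 read 326 to 334 CPM in Tg and 375, 389 and 476 CPM in WT, with no peak in WT replicate 1. On the same scale the first ANPEP row stood at 3.07, 2.37 and 5.99 CPM in Tg and 0.0709, 0.332 and 0.174 CPM in WT. This separation in part restates the contrast on which the row was chosen. The part of tubule content in the differences was not tested.

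**Figure D2:**
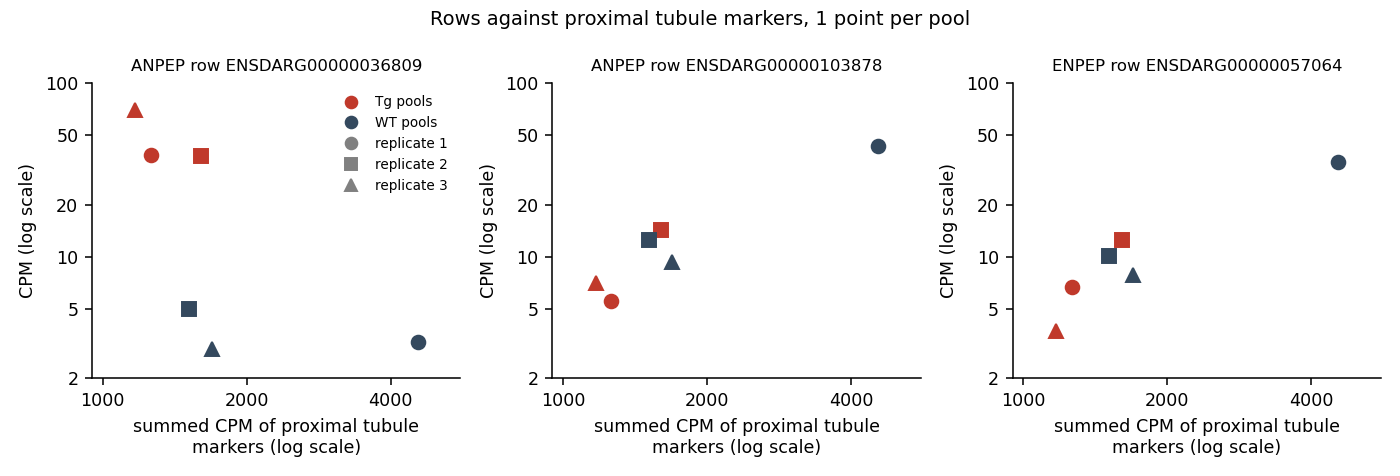
Level of the first ANPEP row, the second ANPEP row and ENPEP (CPM, log scale) against the summed CPM of the proximal tubule markers (log scale), with 1 point per pool, colours for genotype and symbols for the replicate number. The second ANPEP row and ENPEP peak in WT replicate 1, where tubule content was highest, at 43.5 and 35.4 CPM, whereas the first ANPEP row has every Tg pool above every WT pool. The rows had been sorted by these markers in the WT pools.

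The third ANPEP row was barely detected. It had 0 counts in each Tg pool and 13, 13 and 8 counts in the WT pools, or 0.236, 0.233 and 0.122 CPM. It was too low for the filter and was not tested. The WT mean of 0.197 CPM was 3.54 times the mean limit of 3 counts per Tg library. This ratio leaves out the counting error of the low WT counts, so it is not a bound.

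Summed over the 3 rows, ANPEP read 44.3, 52.4 and 77.1 CPM in the Tg pools and 47.0, 17.7 and 12.4 CPM in the WT pools. The sum of WT replicate 1 fell among the Tg pools. The mean was 58.0 ± 17.1 CPM in Tg and 25.7 ± 18.6 CPM in WT (s.d., n = 3 each), a log2 ratio of 1.17, or 1.95 without WT replicate 1. The genotypes overlapped in the sum but not in its make-up. The make-up in part restates the difference known when the rows were selected. The first row gave 87.5, 72.7 and 90.8% of the ANPEP reads in the Tg pools and 6.87, 28.3 and 23.8% in the WT pools, and the second row gave 9.18 to 27.3% in Tg and 70.3 to 92.6% in WT. Read by symbol alone, the ANPEP count of WT was therefore mostly that of the tubule-side row and the ANPEP count of Tg mostly that of the other row.

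The genes nearest to each ANPEP row were listed by the distance of their centred log2(CPM + 0.1) profiles over the 6 pools. These distances take in the difference between Tg and WT, with which the ANPEP rows were selected. Nearness to the first row thus restates that difference in part, and it is no separate evidence of a shared source. The rows tnni1c and tafa1b had 0 counts in every WT pool, so their distances are set by the added 0.1 CPM. Nearest to the first row were tnni1c, a slow-muscle type troponin I (distance 0.67), MYO3A, an unconventional myosin (0.71), tafa1b (1.001) and SLC1A4, a neutral amino acid transporter (1.02). MYO3A read 11.0, 15.0 and 37.9 CPM in the Tg pools and 1.42, 1.65 and 1.11 CPM in the WT pools, with Tg replicate 3 the highest pool as for ANPEP. Nearest to the second row were MAPRE3 (0.39), PIPOX, a peroxisomal enzyme of pipecolate and sarcosine breakdown (0.43), mst1rb (0.47), ism2a (0.51) and CSAD, an enzyme of taurine synthesis (0.52). CSAD read 12.4, 23.1 and 10.3 CPM in the Tg pools and 76.1, 19.0 and 13.4 CPM in the WT pools, with WT replicate 1 the highest pool and Tg replicate 2 the next, as for the second ANPEP row. Both ANPEP rows were themselves far apart, at a distance of 6.20, farther from the first row than 87.3% of the genes tested. That distance also takes in the contrast known when they were selected.

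The intracellular members were expressed in every pool and none of them passed the test. LNPEP read 91.8, 136 and 148 CPM in the Tg pools and 105, 117 and 118 CPM in the WT pools. The Tg pools spread on both sides of the WT pools, and the log2 fold change was 0.15 (standard error 0.18, adjusted p = 0.714 by edgeR). NPEPPS read 134, 136 and 136 CPM in Tg and 134, 167 and 137 CPM in WT. Only WT replicate 2 stood off from the other pools, and the log2 fold change was -0.11 (standard error 0.12, adjusted p = 0.657 by edgeR).

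The ER trimming enzymes were less uniform. The ERAP1 row ENSDARG00000013024 read 57.7, 73.2 and 84.3 CPM in the Tg pools and 51.5, 61.9 and 45.7 CPM in the WT pools. Its Tg pools lay mostly above WT, with an overlap between Tg replicate 1 and WT replicate 2, and the log2 fold change of 0.43 (standard error 0.18) did not pass the test (adjusted p = 0.249 by edgeR). The ERAP1 row ENSDARG00000021859 read 79.3, 75.7 and 82.8 CPM in Tg and 84.7, 88.0 and 84.5 CPM in WT. Every Tg pool of this row was below every WT pool, but by little, with a log2 fold change at -0.11 (standard error 0.10, adjusted p = 0.589 by edgeR). For erap2, the levels were 35.7, 40.9 and 66.2 CPM in the Tg pools and 53.4, 48.7 and 52.4 CPM in the WT pools. The WT pools of erap2 were close together while Tg replicate 3 was above and the other Tg pools below them (log2 fold change -0.11, standard error 0.23, adjusted p = 0.837 by edgeR). The sign turned without Tg replicate 1, at 0.06.

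**Figure D3:**
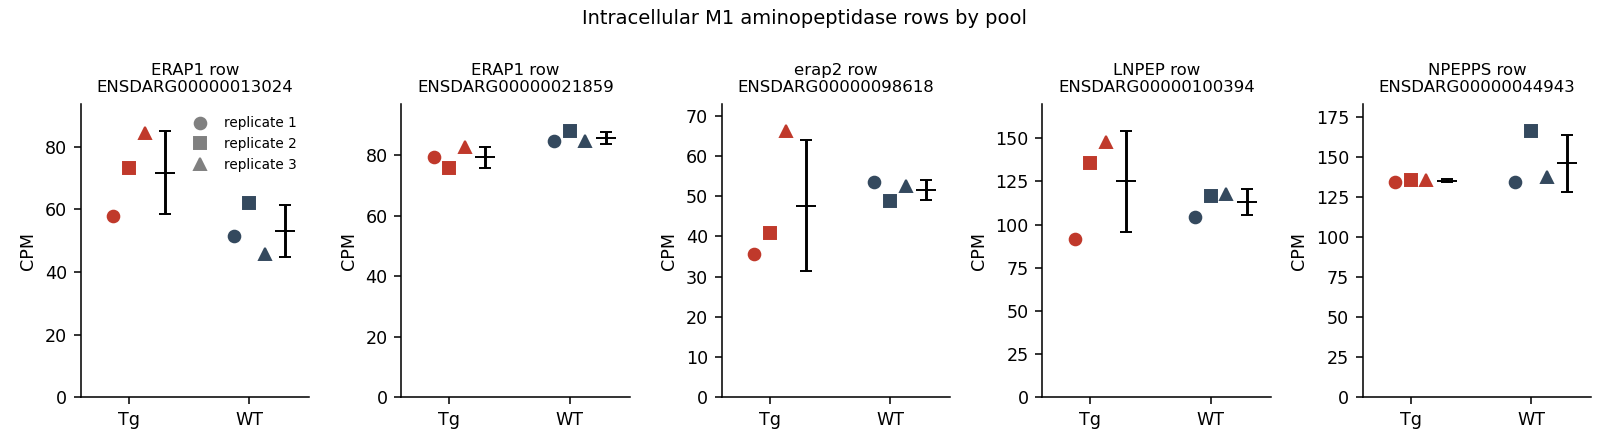
Levels of the 5 intracellular M1 rows in CPM (vertical axes from 0) in each Tg and WT pool, with symbols for the replicate number and bars for the mean and s.d. of 3 pools. NPEPPS stays at 134 to 136 CPM in the Tg pools, and the ERAP1 row ENSDARG00000021859 has all Tg pools, at 75.7 to 82.8 CPM, just below the WT pools, at 84.5 to 88.0 CPM.

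Of the 6 members that entered by name, 0 passed the test at an FDR under 0.05 by edgeR, DESeq2 or limma-voom, and 1 (ERAP1 ENSDARG00000013024) was under an unadjusted p of 0.05 by edgeR, where 3991 of the 20123 genes were. Among the 8 members tested, 1 had all Tg pools above WT, where 14.0% of the genes tested did. This was the first ANPEP row, chosen on this contrast, so nothing is read from that count. All Tg pools lay below WT for 1 member, the ERAP1 row ENSDARG00000021859, where 14.1% of the genes tested did. The median log2 fold change of the 8 rows, the selected ANPEP rows included, was -0.11.

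A pair of rows related by name, anpepla and anpeplb, were not named anpepa in the name table and were not taken as members, although RefSeq's table lists anpepa as a synonym of anpeplb. The row anpepla read 94.7, 212 and 105 CPM in the Tg pools and 243, 519 and 123 CPM in the WT pools, with the highest level of each genotype in replicate 2 (log2 fold change -1.10, standard error 0.54, adjusted p = 0.310 by edgeR). Per 100 CPM of neutrophil markers, anpepla stood at 0.545, 0.719 and 0.452 CPM in Tg and 1.82, 2.35 and 0.973 CPM in WT. Every Tg pool was below every WT pool on this scale. The genotypes overlapped per 100 CPM of macrophage markers, at 4.94, 8.33 and 4.54 CPM in Tg and 9.57, 17.8 and 3.39 CPM in WT. The row anpeplb read 0.581 to 0.868 CPM in Tg and 0.0896 to 1.34 CPM in WT, with overlapping genotypes.

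The other M1 enzymes had 6 rows, of which 4 were tested and 0 passed. They were the leukotriene A4 hydrolase LTA4H, at 379, 616 and 353 CPM in Tg and 453, 642 and 353 CPM in WT, RNPEPL1 (log2 fold change 0.62, standard error 0.22, adjusted p = 0.186 by edgeR), the arginyl aminopeptidase RNPEP (0.72, 0.31, 0.253) and aopep (0.39, 0.21, 0.362). Every Tg pool of RNPEPL1, at 61.3 to 84.7 CPM, was above every WT pool, at 36.8 to 60.4 CPM. Both TRHDE rows, named for an enzyme that breaks down thyrotropin-releasing hormone, were too low to test, and lvrn matched no row.

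The brush border peptidases, which share the tubule membrane with ENPEP in mammals, had 8 tested rows of 12. Their median log2 fold change was -1.15, 7 were negative and 0 passed the test. The genes of the lists named from here on were chosen after their values were seen. Genotypes did not overlap for 3 of the 8 rows, where 14.0% of all genes tested had Tg above and 14.1% had Tg below WT. The angiotensin-converting enzyme ace read 10.7, 17.8 and 7.43 CPM in the Tg pools and 56.9, 39.4 and 35.8 CPM in the WT pools. Its Tg pools were well below all WT pools, WT replicates 2 and 3 included (log2 fold change -1.88, standard error 0.35, adjusted p = 0.0722 by edgeR). The dipeptidyl peptidase dpp4 read 15.1, 16.6 and 12.3 CPM in Tg and 76.0, 30.4 and 27.6 CPM in WT (-1.61, 0.40, 0.109), and the proline aminopeptidase XPNPEP2 read 26.3, 53.6 and 36.7 CPM in Tg and 53.9, 55.5 and 79.7 CPM in WT (-0.70, 0.28, 0.235). By DESeq2, ace and dpp4 passed as lower, where 1414 of 25583 genes did. Without WT replicate 1 the median of the list was -0.74 and the values of ace and dpp4 were -1.65 and -0.99.

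The angiotensin pathway genes, upstream and downstream of ENPEP, had 6 tested rows of 8 with a median log2 fold change of -0.35 and 0 past the test. The angiotensinogen row agt was detected at 0.262 to 0.951 CPM in Tg and 0.0717 to 2.96 CPM in WT, with overlapping genotypes.

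The MHC class I loading genes, which belong to the same pathway as the ERAP enzymes, had 21 tested rows. Their median log2 fold change was -0.03, close to that of all genes, and 0 passed the test. Genotypes did not overlap for 6 of the 21, with 3 above WT (mhc1zba, tapbpl and PSME1) and 3 below (TAP1, tap2a and tapbp.1). Among all genes tested, 14.0% had Tg above and 14.1% had Tg below WT, which is near the shares of this list. The MHC class I gene mhc1zba read 632, 1062 and 830 CPM in the Tg pools and 446, 276 and 337 CPM in the WT pools. Every Tg pool of mhc1zba was above every WT pool (log2 fold change 1.25, standard error 0.24, adjusted p = 0.0758 by edgeR, and past the test by DESeq2). The peptide transporter gene tap2a read 8.47, 29.6 and 37.5 CPM in Tg and 53.8, 47.6 and 44.9 CPM in WT. All its Tg pools were below WT (-0.95, 0.47, 0.321), with Tg replicate 1 the lowest. That pool was also far below every other pool for PSMB8, PSMB9 and mhc1uba, at 16.5, 5.32 and 201 CPM. It was not the lowest for TAP1, at 42.6 CPM. The genotypes overlapped for PSMB8, PSMB9 and mhc1uba, and the part of this pool in the tap2a difference was not tested. The vesicle genes that accompany LNPEP had 10 tested rows with a median of -0.08 and 0 past the test.

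The leukotriene genes around LTA4H had 6 tested rows of 7 with a median log2 fold change of 0.19 and 0 past the test. ALOX5AP, which presents arachidonate to 5-lipoxygenase, read 176, 229 and 186 CPM in Tg and 116, 174 and 86.2 CPM in WT. The leukotriene B4 receptor gene LTB4R read 266, 439 and 337 CPM in Tg and 243, 198 and 206 CPM in WT (log2 fold change 0.69, standard error 0.19, adjusted p = 0.129 by edgeR). The cysteinyl leukotriene receptor gene CYSLTR1 read 5.55, 3.66 and 4.44 CPM in Tg and 14.9, 8.14 and 16.2 CPM in WT (-1.52, 0.33, 0.0865). The genotypes did not overlap for these 3 of the 6 rows, with all Tg pools of ALOX5AP and LTB4R above WT and those of CYSLTR1 below. Among all genes tested the shares were 14.0% above and 14.1% below.

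**Figure D4:**
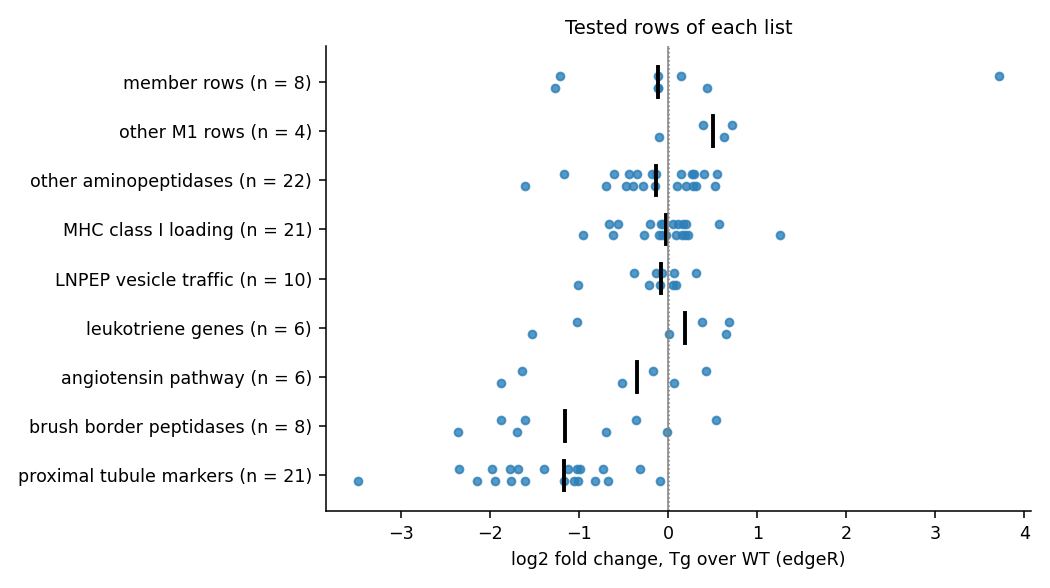
Log2 fold changes of Tg over WT by edgeR (horizontal axis) for the tested rows of each list, 1 point per row, with a black bar at the median, a grey line at 0 and a dotted line at the median of all genes tested (0.01). The members span from -1.28 to 3.71 around a median of -0.11, and the medians of the brush border peptidases (-1.15) and the proximal tubule markers (-1.17) are near each other.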

How the data were processed

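Libraries were prepared from poly(A) RNA with a dUTP protocol and sequenced as paired ends. The authors used cutadapt 1.9 for trimming, HISAT2 2.0.4 for alignment to GRCz11 and StringTie 1.3.4d for assembly. The values they deposited are raw counts per gene and library, not normalized. The sources used here do not state which tool counted the reads. Of 32057 rows, 6474 had no count and 28988 were matched to a symbol.

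Counts were scaled by TMM and filtered by filterByExpr in edgeR 4.0.16 (R 4.3.3), and Tg was tested against WT by the quasi-likelihood test with Benjamini-Hochberg adjustment over all 20123 genes. DESeq2 1.42.0, limma-voom 3.58.1, other scalings, no filter, a replicate block and leaving out each library were the alternatives. The scripts were tested on simulated data. Named genes were by rule the members, the other M1 rows, list members past the test, the 5 genes nearest to each ANPEP row and the transgene rows. Further genes of the lists, which did not pass the test by edgeR, were named after their values were seen. Neighbours of the ANPEP rows were not used here, and some genes that this rule or the lists cover are not reported here. The members and lists were chosen with earlier results of these data known. Symbols without a match (lvrn, dpp8, mme, mhc1uka, cysltr2, slc22a6l, mpx, mmp13a.1, cpa5, grn1 and grn2 among the lists used) were left out.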

Additional observations from a re-analysis of the deposited data

How the results depend on the processing

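With 3 pools per genotype the calls depended on single pools and on the test. Over all genes, 40 were called higher and 73 lower, against 279 and 1122 by DESeq2, 23 and 25 by limma-voom, and 0 to 28 and 0 to 60 when 1 pool was left out. Among the M1 rows that entered by name, 0 were called higher or lower under any alternative. The first ANPEP row, given without a test, had a log2 fold change of 3.36 without Tg replicate 3. The second ANPEP row stood at -0.28 without WT replicate 1. MEIS1 lost its call with library size alone (log2 fold change 1.298) and at 1.17 to 1.46 when a pool was left out, and hoxa9a by limma-voom (9.37) and at 7.36 to 10.07 in 5 of the 6 fits without a pool, while it kept it without WT replicate 1 (7.17). Without a fold threshold, DESeq2 passed 639 of 25583 genes as higher and 1414 as lower, against 45 and 75 of 20123 by edgeR. Of the marker rows, DESeq2 passed 6 proximal and 4 distal tubule rows as lower, against 1 and 1 by edgeR. DESeq2 passed 5 stem and progenitor rows as higher, against 3 by edgeR. It also passed 3 macrophage rows as lower and 1 neutrophil, 1 B cell and 1 thrombocyte row as higher, against 0 each by edgeR. By DESeq2, 1 MHC class I loading row was higher, 1 leukotriene row was higher and 1 lower, 3 of the other aminopeptidases, 2 brush border peptidases and 1 angiotensin pathway row were lower, and each of these counts was 0 by edgeR. These lists share genes, so the counts are not separate. Among the rows lower by DESeq2, dpp4 is both an other aminopeptidase and a brush border peptidase. The gene ace is both a brush border peptidase and an angiotensin pathway gene. When a pool was left out, the log2 fold change ran from -0.43 to 0.058 for erap2 (positive without Tg replicate 1), from -0.40 to 0.16 for LTA4H (positive without Tg replicate 1, Tg replicate 3 or WT replicate 2) and from -0.17 to 1.84 for anpeplb (negative without WT replicate 2), and the cause was not tested. The sorting of the members by WT level, with 2 on the tubule side and 6 on the myeloid side, was the same under its 3 alternatives.

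Replicate numbers did not pair the samples: same-numbered pools had correlations of -0.08, -0.17 and 0.17 in their deviations from the genotype means. With the number as a replicate block, 0 genes were called higher and 1 lower, and 0 of the M1 rows that entered by name were called. MEIS1 stood at 1.34 and hoxa9a at 8.44, both no longer past the test.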

Other observations

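Aminopeptidases and dipeptidases outside the M1 family had 22 tested rows of 23, with a median log2 fold change of -0.14 and 0 past the test by edgeR's quasi-likelihood test, while 9 were under an unadjusted p of 0.05, where 19.8% of all genes tested were. Among these 9, LAP3, METAP1 and metap2b had positive log2 fold changes (0.52, 0.40 and 0.31) and the others negative ones. All Tg pools lay above WT for 5 of the 22 rows and below for 6, where 14.0% and 14.1% of the genes tested did. By DESeq2, 3 passed as lower (fap, dpp4 and DPP7) and 0 as higher, where 1414 and 639 of 25583 genes did. The fibroblast activation protein gene fap, a relative of dpp4, read 6.93, 7.03 and 8.85 CPM in the Tg pools and 12.2, 22.8 and 16.4 CPM in the WT pools (log2 fold change -1.17, standard error 0.27, adjusted p = 0.0970 by edgeR). Every Tg pool of fap was below every WT pool, and its WT level was lowest in replicate 1, the pool with the highest tubule content. The part of tubule content in the fap levels was not tested. The lysosomal peptidase DPP7 read 64.8, 82.8 and 61.9 CPM in Tg and 82.5, 108 and 129 CPM in WT, where Tg replicate 2 and WT replicate 1 overlapped. These genes were chosen after their values were seen.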
